A study of Mus musculus with 4 samples.

Results

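The mouse L3mbtl family was examined in newly made RNA before and after loss of SNRNP70. Its members were taken by symbol from the deposited count table: L3mbtl1, L3mbtl2, L3mbtl3 and L3mbtl4, which are 4 of 55401 genes. L3mbtl1 was chosen by its own 5 h minus 0 h change, which had the lowest p-value of all rising genes, so its values are given here as a description, with no test. The other 3 were taken by family name. Of the 4, 3 passed the filter on low counts and L3mbtl4 did not, having no count in any library.

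Newly made RNA carries 4-thiouridine, a uridine analogue, when that is given to living cells. Such RNA was caught on streptavidin beads through biotin and sequenced. The cells were 129/Ola mouse embryonic stem cells grown with serum and leukemia inhibitory factor. All 4 libraries came from SNRNP70AID cells, in which an auxin-inducible degron lets the auxin IAA send SNRNP70 (U1-70K, a protein of the U1 snRNP) to the proteasome. There were 2 libraries without IAA (0 h), whose genotype the labels give as WT although the titles name the degron line, and 2 libraries after IAA for 5 h, labelled as SNRNP70 degradation. The series text calls the replicates independent without saying whether cultures or clones were separate, so the p-values may measure technical spread only. The series asked how SNRNP70 loss compares with loss of ZFP207 in U1 snRNP function. Totals ran from 7174772 to 17752887 counts, and replicate libraries correlated at 0.969 (0 h) and 0.965 (5 h) across genes on log CPM (counts scaled to the TMM-normalised library size). Of 17344 tested genes, 43.2% were called, 22.0% rising and 21.2% falling, at a Benjamini-Hochberg adjusted p under 0.05. All 8 embryonic stem cell markers were tested and summed to 2930 to 3310 CPM per library (3 rose and 2 fell, median log2 fold change 0.11). Of these markers 2 rose and 3 fell with library totals, and 0 rose and 6 fell with mitochondrial scaling (median -0.73). Among the feeder fibroblast markers, Thy1 (7.29 to 9.58 CPM) and Col1a1 (1.52 to 3.24 CPM) had counts in every library. Col1a2 had at most 4 counts in a library, and Col3a1, Postn and Lum had 0 in every library. The 6 summed to 9.14 to 13 CPM. The range was 6.1 to 11.1 CPM for primitive endoderm markers, 0 to 1.02 CPM for 2-cell-like markers (none tested) and 69.2 to 82.4 CPM for neural markers, in which Sox1 rose and Tubb3 fell (a call lost in DESeq2 and without 0 h replicate 1, 0 h replicate 2 or 5 h replicate 2). With mitochondrial scaling Sox1 lost its call (0.62, edgeR adjusted p = 0.147), and 0 neural markers rose and 3 fell. Of the tested fibroblast (2) and endoderm (5) markers 0 passed by edgeR, DESeq2 or limma-voom, and 0 had an unadjusted p under 0.05 in edgeR. Leaving out 0 h replicate 1 had 1 endoderm marker rise, leaving out 5 h replicate 1 had 2 fall, and mitochondrial scaling had 1 fall (Dab2, -1.73). The part of these markers in any result was not tested.

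Malignant brain tumour (MBT) repeats are folds that bind lysines of histone tails carrying few methyl groups. L3MBTL1 compacts chromatin, with a preference for histone H4 methylated at lysine 20. L3MBTL2 is a subunit of a variant Polycomb repressive complex that silences germline genes in embryonic stem cells, and L3MBTL3 brings the demethylase LSD1 to its targets. U1 snRNP, the particle that SNRNP70 belongs to, pairs with 5' splice sites and keeps transcripts from being cut and polyadenylated early.

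The promoter of Srsf6, the gene just before L3mbtl1 on the same strand of chromosome 2, is shown because Srsf6 is the nearest tested gene before L3mbtl1 and rose at 5 h. The run covers 250 bases before to 50 bases after the start site of RefSeq on GRCm38.p6, to which mm10 corresponds, 5' to 3' on the plus strand. The window is chr2:162931258-162931557, and capitals mark the motifs described next.
Srsf6: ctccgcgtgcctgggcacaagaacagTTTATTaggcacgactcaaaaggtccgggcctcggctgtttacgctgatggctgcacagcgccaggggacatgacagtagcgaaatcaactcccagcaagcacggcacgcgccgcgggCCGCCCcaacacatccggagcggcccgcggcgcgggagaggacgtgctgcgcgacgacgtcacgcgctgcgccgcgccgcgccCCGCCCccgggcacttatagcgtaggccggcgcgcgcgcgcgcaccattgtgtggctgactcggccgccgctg
Both strands were searched for 4 motifs: TATAAA (the TATA box), GGGCGG (the GC box), AATAAA (the poly(A) signal) and GTAAGT (letters of the 5' splice site consensus). The Srsf6 window held 2 GC boxes and 1 AATAAA, all on the minus strand and without overlap, and no TATAAA. Of 32851 promoter windows in the table, 13.6% held TATAAA, 35.7% GGGCGG, 19.6% AATAAA and 7.65% GTAAGT. None of the windows of Srsf6, L3mbtl2, L3mbtl3 and L3mbtl4 held TATAAA or GTAAGT. The Srsf6 window had 45 CpG dinucleotides, against a median of 7 over all windows. L3mbtl2 had 17, L3mbtl4 had 21, and the 2 windows of L3mbtl3 had 44 and 42.

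L3mbtl1 went from almost no labelled RNA to a level of well over 100 CPM. At 0 h it had 62 counts in replicate 1 and 15 in replicate 2, and at 5 h it had 2590 and 1472, or 3.19, 1.9, 178 and 159 CPM in that order. Both 5 h libraries lay above both 0 h libraries, as they did for 36.0% of tested genes. This separation belongs to the change that chose L3mbtl1. The 2 libraries of each time were close to each other against the distance between the times. The means were 2.54 ± 0.905 and 169 ± 13.9 CPM (SD, n = 2 each), a log2 fold change of 5.93 ± 0.19 (SE) or 61-fold in edgeR. A 5 h library was 49.8 to 93.7 times a 0 h library over the 4 pairs, and the log2 value lay between 5.12 with scaling to mitochondrially encoded genes and 6.47 without 0 h replicate 1 over 13 alternatives. The rising genes with the next lowest p-values were Snhg12 (1.87 ± 0.09), Cnot3 (1.90 ± 0.09) and Gm45205 (2.50 ± 0.12), all with at least 236 counts in every library.

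By the log2 fold change itself, 59 tested genes stood above L3mbtl1, and all 59 had no count in at least 1 of the 0 h libraries. None of the genes above it had 3 or more counts in both 0 h libraries, so L3mbtl1 had the highest log2 fold change among genes that did. With a floor of 5 CPM on the mean of the 4 libraries instead, 3 genes stood above it. Of 5313 tested genes with a RefSeq span from 0.5 to 2 times the 35.5 kb of L3mbtl1, the median was -0.22 and 99.8% were lower. These ranks and shares use the contrast that chose L3mbtl1 and are descriptions only. The 0 h counts of L3mbtl1, 62 and 15, were also those of Mir3535 and Catsper2. Such ties were common, since 722 of 1114 genes with 50 to 75 counts in 0 h replicate 1 (64.8%) shared both 0 h counts with another gene in that range. At 5 h the 3 genes differed, with 204 and 271 counts for Mir3535 and 62 and 46 for Catsper2.

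**Figure D1:**
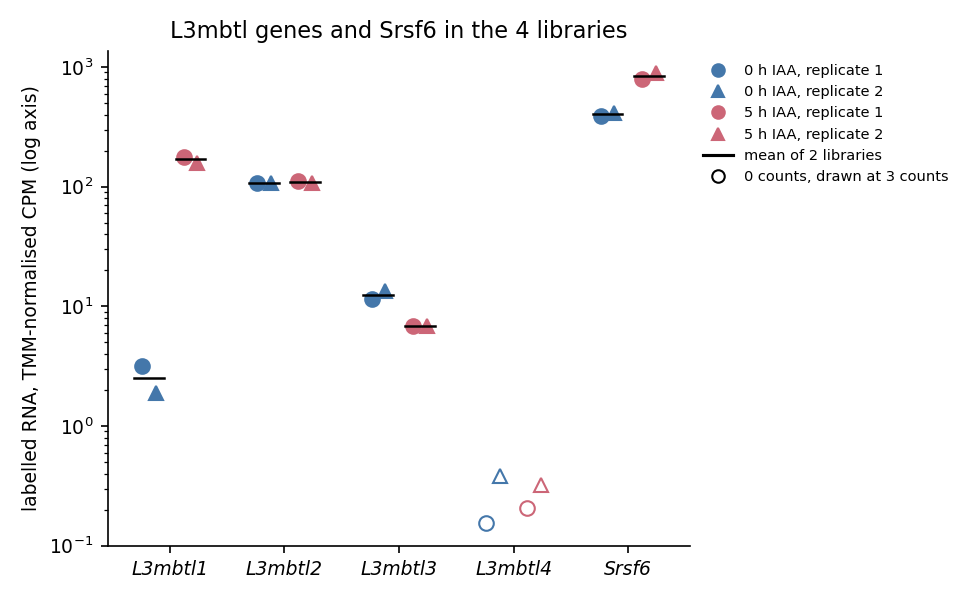
Labelled RNA of the 4 L3mbtl genes and Srsf6 in each library, as TMM-normalised CPM on a log axis; circles and triangles are replicates 1 and 2, bars are means of 2 libraries, and open symbols mark 0 counts, drawn at the level of 3 counts. L3mbtl1 went from a mean of 2.54 to 169 CPM, L3mbtl2 stayed near 107 to 110 CPM, L3mbtl3 went from 12.5 to 6.84 CPM and L3mbtl4 had no counts.

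L3mbtl2, the Polycomb family member, had nearly equal levels at both times in the TMM scaling. Its counts were 2091 and 845 at 0 h and 1629 and 993 at 5 h, which gave 107 and 107 CPM, then 112 and 107 CPM. The groups overlapped. The log2 fold change was 0.03 ± 0.10 and did not pass edgeR's quasi-likelihood test (Benjamini-Hochberg adjusted p = 0.825). The direction depended on the scaling. Library totals gave -0.23 (edgeR adjusted p = 0.0858), and mitochondrial scaling gave -0.81 and called it lower (edgeR adjusted p = 0.00198). The median of all tested genes was -0.02, -0.28 and -0.86 in the 3 scalings, so L3mbtl2 lay close to the median gene in each.

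L3mbtl3, the LSD1 partner, fell. Its counts were 223 and 106 at 0 h and 100 and 63 at 5 h, or 11.5, 13.5, 6.89 and 6.79 CPM. Both 5 h libraries lay below both 0 h libraries, as they did for 37.5% of tested genes. The means of 12.5 ± 1.42 and 6.84 ± 0.0678 CPM gave a log2 fold change of -0.85 ± 0.24 (edgeR, Benjamini-Hochberg adjusted p = 0.0164), which is 1.81-fold lower. DESeq2 gave the same log2 value without calling it (adjusted p = 0.0626), and without 0 h replicate 2 it was -0.74 with adjusted p = 0.113, in a range from 0.00033 to 0.113 over 13 alternatives. In bulk RNA, fewer cells that make a transcript and less of it per cell cannot be told apart. The gene spans 102 kb on chromosome 10, and 2966 tested genes of 0.5 to 2 times that span had a median of -0.28, with 22.3% of them lower than L3mbtl3.

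L3mbtl4 is the longest of the family, with a RefSeq span of 511 kb on chromosome 17. It had 0 counts in each of the 4 libraries, which allows up to 3 counts, or 0.154 and 0.381 CPM in the 0 h and 0.207 and 0.324 CPM in the 5 h libraries (counting error only). No change of L3mbtl4 could be measured at this depth. The family therefore held 1 member that was far higher, 1 near the median gene, 1 that fell and 1 that was not detected.

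The genes whose profiles over the 4 libraries were most like each member's were found by the Euclidean distance between centred log2 CPM values, predicted genes left out. For L3mbtl1 these were Mas1 (distance 0.75), Prdm13 (1.24) and Prss47 (1.79). All 3 had 0 counts in both 0 h libraries and few at 5 h: 93 and 71 for Mas1, 64 and 41 for Prdm13, and 50 and 23 for Prss47. Their 0 h log CPM values, and so these distances, were set by the prior count of 2. Against 0 counts their log2 fold changes (9.49, 8.82 and 8.25, beside 5.93 for L3mbtl1) are not measured well. Only 1 gene of any kind lay within 0.5 of L3mbtl1. For L3mbtl2 they were Zfp626 (0.01), Sec22b (0.02) and Ddx55 (0.03), out of 5163 genes within 0.5. Card6, Oaf and Tbc1d23 (all 0.03) were nearest to L3mbtl3, out of 2775 such genes, so the profiles of L3mbtl2 and L3mbtl3 were ordinary in these data.

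On chromosome 2, L3mbtl1 spans 162942333 to 162977806 on the plus strand (mm10) and no other RefSeq gene overlaps it. Srsf6, which encodes a serine/arginine-rich splicing factor, ends 5.21 kb before it on the same strand. Srsf6 rose. Its counts were 7568 and 3264 at 0 h and 11578 and 8224 at 5 h, or 389, 414, 798 and 887 CPM, without overlap between the groups (both 5 h libraries above both 0 h libraries for 36.0% of tested genes). The means were 402 ± 18.2 and 842 ± 63.1 CPM, a log2 fold change of 1.07 ± 0.09 (edgeR, Benjamini-Hochberg adjusted p = 2.17e-05). Scaled to mitochondrial genes, the value of 0.21 missed the threshold (adjusted p = 0.221).

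Set against Srsf6 within each library, which no scaling can change, L3mbtl1 had 0.819% and 0.46% as many counts at 0 h and 22.4% and 17.9% at 5 h. The 5 h shares were both far above the 0 h shares. L3mbtl1 gained 166 CPM and Srsf6 441 CPM, and the log2 fold change of L3mbtl1 was 4.86 above that of Srsf6. Counts and CPM were not set per transcript length, so these shares and gains do not compare the transcript output of both genes. Gene counts do not record where a transcript begins. RNA begun at the start of L3mbtl1 and RNA running on from Srsf6 therefore cannot be told apart here, and the part of Srsf6 in the L3mbtl1 result was not tested.

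No gene just beyond L3mbtl1 reached such a level. Sgk2, a kinase gene 9.52 kb beyond its end, had 35 and 0 counts at 0 h and 21 and 20 at 5 h, and its value of 0.80 ± 0.98 did not pass (edgeR, Benjamini-Hochberg adjusted p = 0.548). The pseudogene Gm11453 between them had 0 counts in all libraries. Ift52, a gene of intraflagellar transport 39.3 kb away, fell from 33.6 ± 5.31 to 10.4 ± 0.856 CPM, with 37.3 and 29.8 CPM at 0 h and 11 and 9.81 CPM at 5 h. This was a log2 change of -1.69 ± 0.19 (edgeR, Benjamini-Hochberg adjusted p = 8.43e-05), so Ift52 went the opposite way to L3mbtl1 and Srsf6 in every library pair. Both 5 h libraries lay below both 0 h libraries for 37.5% of tested genes.

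Further on, Mybl2, a cell cycle transcription factor gene, was at 411 ± 12.8 CPM at 0 h and 436 ± 65 CPM at 5 h and did not pass (0.09 ± 0.11, edgeR adjusted p = 0.553). It was called higher, at 0.25, without 5 h replicate 2, and was called lower, at -0.75, with mitochondrial scaling. Mir7003, which lies inside the Mybl2 span and cannot be separated from it, had 36, 9, 26 and 14 counts. Gtsf1l, on the minus strand, fell by 0.87 ± 0.21 on the log2 scale, from 17.6 ± 2.19 to 9.55 ± 0.0635 CPM (edgeR, Benjamini-Hochberg adjusted p = 0.00735), a call lost without 0 h replicate 2 (-0.75, adjusted p = 0.0676).

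**Figure D2:**
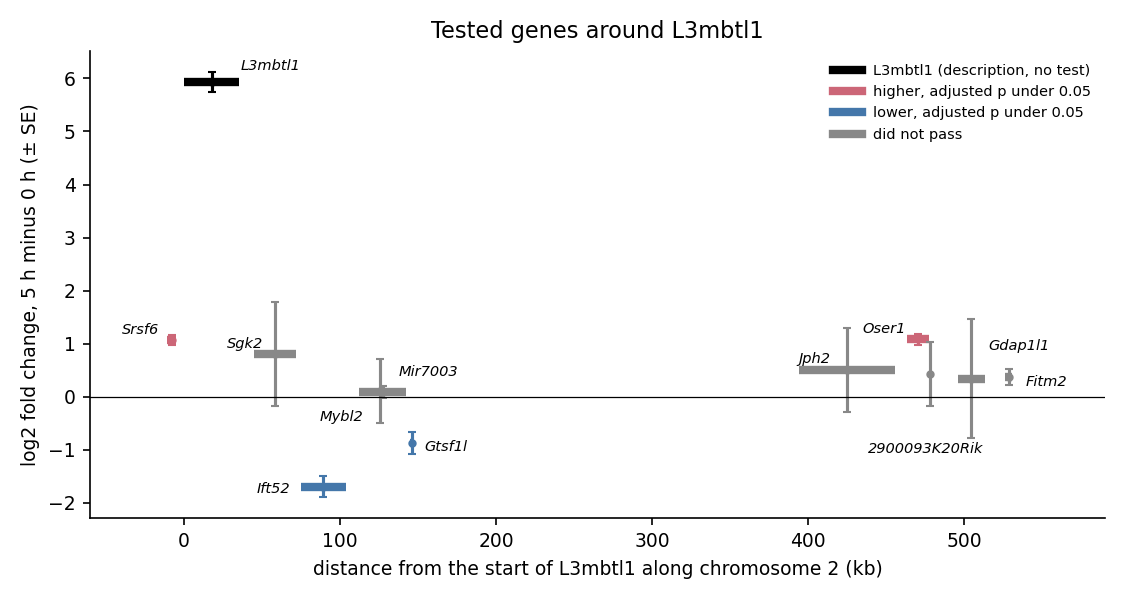
Log2 fold change (5 h minus 0 h, bars ± SE) of L3mbtl1 and the 11 tested genes within 500 kb of it, against distance from its start; thick lines show each gene's span. L3mbtl1 is at 5.93, Srsf6 and Oser1 are at 1.07 and 1.08, and Ift52 is lowest at -1.69.

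Within 500 kb of L3mbtl1 RefSeq lists 25 other genes, of which 21 were in the table and 11 were tested. Of these 11, 2 rose (Srsf6 and Oser1), 2 fell (Ift52 and Gtsf1l) and 7 did not pass, beside 22.0% and 21.2% of all tested genes. The median was 0.37, beside -0.02 over all genes. The gene at that median, Fitm2 (0.37 ± 0.15), did not pass. Sgk2, Mir7003, Jph2, 2900093K20Rik and Gdap1l1 had few counts and SEs from 0.60 to 1.12. Whether the region differed from all genes was not tested. Oser1, an oxidative stress responsive gene 428 kb away and named after its value was seen, rose from 60.1 ± 1.58 to 126 ± 4.31 CPM. The count of higher neighbours was 4 without 5 h replicate 2 and 0 with mitochondrial scaling, and that of lower ones was 1 without 0 h replicate 2.

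On the side before L3mbtl1 the next tested gene after Srsf6 was 1830 kb away. Ptprt, which fills much of the space between, had 0 counts in all libraries. The 4 nearest were Chd6, a chromatin remodeler that fell from 218 ± 11.7 to 149 ± 0.847 CPM, Lpin3, a lipin phosphatase gene that fell from 7.86 ± 0.875 to 2.32 ± 0.0699 CPM, Zhx3 (0.22 ± 0.35, not passed) and Plcg1, a phospholipase gene. Plcg1 rose by 0.35 ± 0.11 (edgeR, Benjamini-Hochberg adjusted p = 0.0261). With library totals it was at 0.08 and not called, and with mitochondrial scaling it was called lower (-0.51, edgeR adjusted p = 0.0199). Plcg1 also lost its call without 0 h replicate 2 (0.27) and without 5 h replicate 2 (0.26).

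Pairs arranged like Srsf6 and L3mbtl1 were set beside them: neighbouring tested genes on 1 strand, without overlap and at most 10 kb apart. Only tested genes with a unique RefSeq symbol and a known strand entered. Others, such as Sgk2, were skipped, so a skipped gene could lie between paired genes. This gave 1586 pairs. The second gene, the one further along the direction of transcription, rose in 24.0% of all pairs and in 28.5% of the 410 pairs whose first gene rose (117 pairs, with 88 falling). In those 410 the second gene had a median log2 fold change of 0.11 and was, at the median, 0.63 below the first (a difference of -0.63). The Srsf6 and L3mbtl1 pair had the largest difference of the 410, 4.86. Over all 1586 pairs it ranked 10. These ranks include the contrast that chose L3mbtl1 and are descriptions only.

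**Figure D3:**
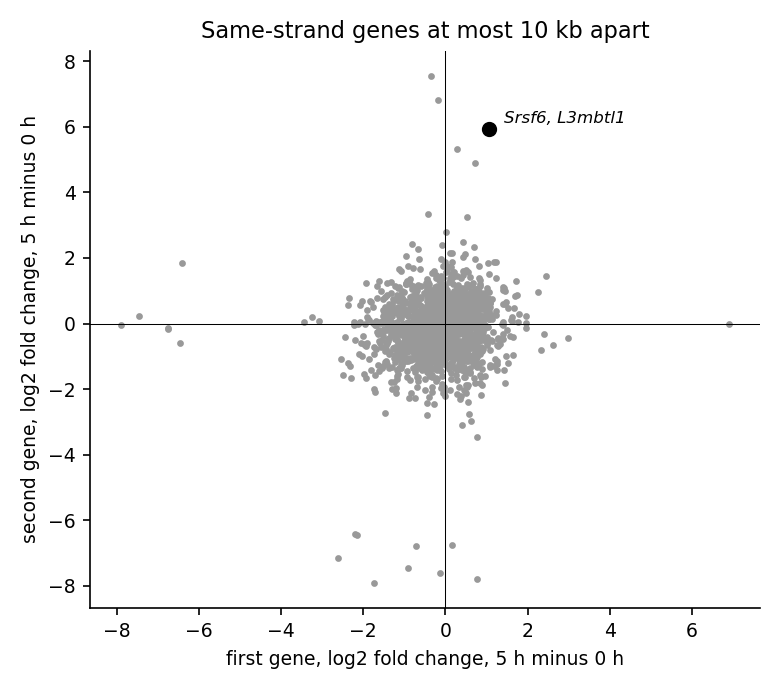
Log2 fold change of the second gene against that of the first for 1586 pairs of neighbouring tested genes on the same strand. Genes of a pair were at most 10 kb apart, and genes without a known strand were skipped. Each point is a pair and the black point is Srsf6 and L3mbtl1. The black point is at 1.07 for the first gene and 5.93 for the second.

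None of the other MBT-domain genes passed the test in the TMM scaling. Of 5 (Mbtd1, Sfmbt1, Sfmbt2, Scmh1 and Scml2), all were tested, 0 passed by edgeR and 0 had an unadjusted p under 0.05, with log2 fold changes from -0.52 to 0.09 and a median of 0.03. DESeq2 and limma-voom also called 0. With mitochondrial scaling all 5 were called lower, with a median of -0.83 beside -0.86 over all genes. Mbtd1, a subunit of the TIP60 acetyltransferase complex, was at 198 and 204 CPM at 0 h and 185 and 225 CPM at 5 h. Sfmbt2, an imprinted gene, was at 57.4 and 45 CPM, then at 56.4 and 53 CPM. For both the groups overlapped.

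Of the 14 partners of L3MBTL2 in its Polycomb complex, 6 rose, 4 fell and 4 did not pass, beside 22.0% rising and 21.2% falling over all tested genes. Calls in both directions were common over all tested genes, and whether this list differed from them was not tested. Its median was 0.35, beside -0.02 over all genes. The list had 3 rising and 5 falling genes with library totals, and 0 and 8 with mitochondrial scaling. Rybp, which holds the RING proteins in variant Polycomb complexes, was at 481 and 504 CPM at 0 h and 921 and 1130 CPM at 5 h, and rose by 1.06 ± 0.11. Max, the partner of MGA in DNA binding, was at 134 and 114 CPM, then at 250 and 250 CPM, and rose by 1.01 ± 0.10. With mitochondrial scaling neither passed (0.20 and 0.16). Mga, the scaffold of the complex, fell from 953 and 974 CPM to 505 and 573 CPM, by 0.84 ± 0.09 on the log2 scale, and was lower in all 13 alternatives. The adjusted p by edgeR with Benjamini-Hochberg adjustment was 4.73e-05 for Rybp, 5.29e-05 for Max and 6.75e-05 for Mga.

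The next list held genes acting on lysine 20 of histone H4 in any methylation state. L3MBTL1 binds this lysine when it carries few methyl groups. Of 5 genes, 3 rose, 0 fell and 2 did not pass, beside 22.0% rising and 21.2% falling over all tested genes, and the median was 0.60 beside -0.02. With mitochondrial scaling 0 rose and 2 fell. Kmt5c and Kmt5b, which write the higher methylation states, rose by 1.00 ± 0.10 and 0.60 ± 0.10, and Trp53bp1, the reader 53BP1 in DNA repair, by 0.77 ± 0.09. With mitochondrial scaling none of these 3 was called, and Kmt5b and Trp53bp1 had negative values (-0.25 and -0.08). Kmt5c had 87.2 and 97.3 CPM at 0 h and 188 and 181 CPM at 5 h. Kmt5a, which writes the first methyl group, was at 0.05 ± 0.11 and the demethylase gene Phf8 at 0.02 ± 0.12.

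Among the 4 genes of L3MBTL3's partners, 1 rose and 1 fell, a share close to the 43.2% called over all tested genes. With mitochondrial scaling 0 rose and 3 fell. Kdm1a, which encodes LSD1, fell from 113 and 112 CPM to 80.3 and 75.4 CPM, by 0.53 ± 0.10 on the log2 scale (edgeR, Benjamini-Hochberg adjusted p = 0.00193), as L3mbtl3 itself fell. Samd1, which binds unmethylated CpG islands, went from 47.5 and 51.6 CPM to 86.8 and 86 CPM and rose by 0.81 ± 0.11 (adjusted p = 0.000317), with -0.04 under mitochondrial scaling. Rcor1 and Rbpj did not pass. The median of the 4 was 0.16 in the TMM scaling, and the other scalings turned it to -0.11 (library totals) and -0.68 (mitochondrial).

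**Figure D4:**
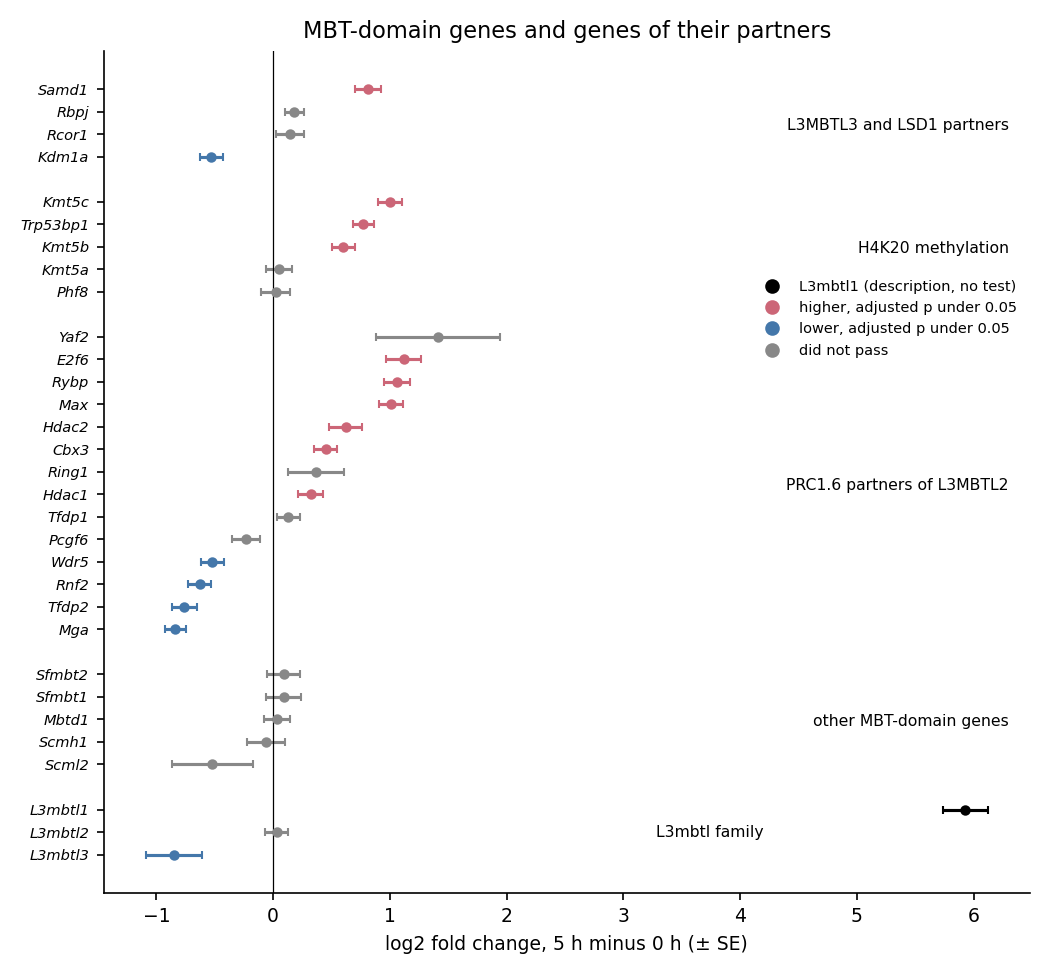
Log2 fold change (5 h minus 0 h, ± SE, n = 2 libraries per time) of the 3 tested L3mbtl genes, 5 other MBT-domain genes and the tested genes of 3 partner lists. L3mbtl1 stands at 5.93, and the other points lie between -0.85 (L3mbtl3) and 1.41 (Yaf2, which did not pass).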

How the data were processed

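The authors deposited whole-number gene counts for the 4 libraries. The tools named in the submitters' processing notes are StringTie 2.2.1, HISAT2 2.2.1 and DESeq2 1.42.0, with the build mm10 and no roles. The deposited values were treated as estimated counts, since per the file headers the layout is that of StringTie's export; such counts come from coverage, and 1 fragment can be worth several. Neither annotation nor strand setting is given in the sources used here, and overlapping or antisense reads cannot be separated. Rounding changed nothing, and no column was of another sample.

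Genes kept by filterByExpr were fitted in edgeR 4.0.16 (TMM, robust quasi-likelihood test, Benjamini-Hochberg adjustment over 17344 genes, threshold 0.05), 5 h minus 0 h, with all 4 libraries and no block. Alternatives used DESeq2 1.42.0, limma 3.58.1 (voom), other scalings (DESeq2 size factors, library totals, mitochondrially encoded genes), filters (none; 50 counts in 2 libraries), counts divided by 4, a replicate block, each library left out, and windows of 250 and 1000 kb. On simulated data with 200 of 17344 genes changed, 75 of 100 changed 2-fold and 98 of 100 changed 4-fold were recovered, and 10 unchanged genes were called. The changed genes were drawn only from those above a CPM limit, and were far fewer than the 43.2% called in the data. These shares therefore need not hold for the data.

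Positions come from a RefSeq table of GRCm38.p6, matched by symbol for 39082 genes (Trp53bp1 through a synonym). Strand was taken from the promoter table. The promoter of L3mbtl1 is not reported here. SEs are the absolute log2 fold change over the square root of F. Log CPM used a prior count of 2. The set of same-strand pairs was chosen after seeing the data. Text names the members, the 5 nearest tested genes on each side of L3mbtl1, up to 3 genes per list that passed (otherwise the 2 highest) and 3 alike genes per member. Other names followed their values. Members and lists were chosen with earlier results of these data known. Intervals and floors cover counting error only.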

Additional observations from a re-analysis of the deposited data

How the results depend on the processing

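Counts over all genes were 3814 higher and 3677 lower. With library totals 2298 were higher, and with mitochondrial scaling 396 were higher and 8872 lower. Called genes were 50.9% higher in the TMM fit, 30.4% with library totals and 4.27% with mitochondrial scaling. Leaving out 1 library gave 2721 to 3765 higher and 2609 to 3832 lower genes. For the chromosome 2 neighbours the count of higher genes was 2, 0 with mitochondrial scaling, 1 in a window of 250 kb, and 2 to 4 with 1 library left out, and that of lower genes was 2, and 1 to 2 with 1 library left out. L3mbtl3 was lower in all 13 alternatives and lost its call in DESeq2 (-0.85, adjusted p = 0.0626) and without 0 h replicate 2, in a range of -0.97 to -0.74 with 1 library left out. L3mbtl2 was at -0.23 with library totals, -0.81 with mitochondrial scaling and -0.01 with the stricter filter, and at 0.00 to 0.08 with 1 library left out. L3mbtl4 gave no value in any setting. Deviations of same-numbered libraries from their group means correlated at r = 0.0505 across genes, so little shared deviation was seen. With 2 libraries per time this cannot show whether same-numbered samples were handled as pairs. The fit with a replicate block gave 3838 higher and 3553 lower genes, 5.97 for L3mbtl1, 0.03 for L3mbtl2 and -0.85 for L3mbtl3.

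The sign turned with mitochondrial scaling for Col1a1 (-0.24), Ddx55 (-0.82), Klf4 (-0.22), Kmt5b (-0.25), Mbtd1 (-0.83), Mir7003 (-0.71), Mybl2 (-0.75), Plcg1 (-0.51), Samd1 (-0.04), Sec22b (-0.80), Sfmbt2 (-0.75), Sgk2 (-0.04), Thy1 (-0.52), Trp53bp1 (-0.08), Zfp626 (-0.81) and Zhx3 (-0.62). It turned with library totals for Ddx55 (-0.25), Mbtd1 (-0.24), Mir7003 (-0.15), Mybl2 (-0.18), Sec22b (-0.22), Sfmbt2 (-0.18), Zfp626 (-0.24) and Zhx3 (-0.05), and with the stricter filter for Ddx55 (-0.03), Mbtd1 (-0.01), Sec22b (-0.00) and Zfp626 (-0.01). Both scalings move the median gene down, from -0.02 to -0.28 with library totals and to -0.86 with mitochondrial scaling. Mitochondrially encoded genes held 4.41% and 4.34% of counts in the 0 h libraries and 6.03% and 7.17% in the 5 h libraries. With 1 library left out values ran from -0.03 to 0.08 for Ddx55, -0.10 to 0.17 for Mbtd1, -0.16 to 0.54 for Mir7003, -0.07 to 0.25 for Mybl2, -0.07 to 0.29 for Sfmbt2, -0.01 to 0.08 for Zfp626, -0.03 to 0.60 for Zhx3 and -0.01 to 7.25 for Sgk2. The highest value of Sgk2 was that without 0 h replicate 1, the library that held all its 0 h counts, and is no fold. For the other turns the cause was not tested. Depth sets the upper limit for L3mbtl4, which had no counts, and the precision of L3mbtl1 at 0 h (15 counts in the shallower library).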

Other observations

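Same-strand pairs at most 10 kb apart in which the second gene had a log2 fold change above 3 were picked out after their values were seen, so no test is given. Besides L3mbtl1 there were 6 such second genes. Of these, 4 had 0 counts in a 0 h library: Nhlh1 after Ncstn, Gipc3 after Hmg20b, Naip1 after Gtf2h2 and Chadl after Rangap1, with 5 h means of 1.8, 1.11, 10.2 and 2.4 CPM. Only their levels are given, since folds against so few counts are not measured well. The other 2 had counts in every library. Cmya5, a muscle gene 1.13 kb after Tent2, went from a mean of 1.49 to 15.4 CPM (3.33 ± 0.33, with -0.43 for Tent2). Scg5, a secretory granule gene 2.4 kb after Arhgap11a, went from 0.677 to 6.62 CPM (3.25 ± 0.43, with 0.52 for Arhgap11a). The 5 h mean of 169 CPM for L3mbtl1 was above all of these. Where transcripts of these genes begin was not tested.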
